A study of Homo sapiens with 4 samples.

Results

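The mitochondrial genome encodes 37 genes, and their RNA was followed in lung adenocarcinoma (LAD) cells with and without a constitutively active AKT1. The members were selected by gene symbol, as every gene whose GENCODE symbol begins with MT-, which gave 13 mRNAs, 2 rRNAs and 22 tRNAs out of 60558 gene identifiers, of which 60261 had a GENCODE name. Both lines used, A549 and HCC827, are established cultures of human LAD, and the myr-AKT1 construct encodes the kinase with a myristoylation signal that holds it at the membrane. In each line, cells transduced with myr-AKT1 and cells with the control vector were sequenced, which gives 4 libraries named here by line and construct (A549-vector, A549-myr-AKT1 and the same for HCC827). There was 1 library per condition, so no value has a replicate error, no difference within a line has a replicate check, and intervals below cover counting error only. Since the mitochondrial genes were picked with this contrast known, their differences are given as a description without a test.

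Human mitochondrial DNA is a small circle that is read from both strands into long precursor RNAs. Most tRNA genes lie between the other genes, and enzymes cut the precursors at the tRNAs to free the rRNAs and mRNAs. The 13 mRNAs encode core subunits of the respiratory chain, with the ND genes in complex I (NADH dehydrogenase), MT-CYB in complex III, the CO genes in complex IV (cytochrome c oxidase) and MT-ATP6 and MT-ATP8 in complex V (ATP synthase). All other subunits, and every protein that copies, transcribes and processes mitochondrial DNA, are made from nuclear genes. Mitochondrial mRNAs other than MT-ND6 are known to carry poly(A) tails, and the rRNAs carry at most short ones.

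The deposited values are normalized read counts, in which the reads of a library were scaled by a size factor, estimated within each line, so that they are compared here within a line only. The reads behind them were recovered and summed to between 16322183 and 33530317 per library. The labels describe removal of rRNA before a stranded library kit, whereas the Methods describe selection of polyadenylated RNA. The rRNA is thus the target of the one preparation and lies outside the other, and the rRNA reads are what the preparation left. The label check is AKT1, whose normalized count was higher with myr-AKT1 in both lines, with a log2 fold change (95% interval for counting error) of 0.57 (0.51 to 0.63) in A549 and 1.14 (1.07 to 1.21) in HCC827. The 5 epithelial markers (EPCAM, KRT8, KRT18, KRT19 and CDH1) had 380 reads or more in each library, whereas the leukocyte marker CD3E had 0 reads throughout, PTPRC had at most 7, and the fibroblast markers PDGFRB, COL3A1 and DCN had at most 25. Of the remaining markers, LYZ had 2 to 69 reads, PECAM1 13 to 84 and VWF at most 15. Summed by type, A549-myr-AKT1 had more reads of such markers than A549-vector, with 76 against 4 for leukocytes, 61 against 14 for endothelium and 42 against 14 for fibroblasts, while in HCC827-myr-AKT1 and HCC827-vector these sums were 9 and 7, 99 and 88, and 7 and 9. The epithelial markers did not move together. In HCC827 the log2 fold change was -1.81 for KRT8, -1.75 for KRT18, -0.75 for KRT19, -0.22 for EPCAM and 0.31 for CDH1. In A549 it was -0.36 for KRT8, -0.38 for KRT18, 2.65 for KRT19, 0.59 for EPCAM and 1.39 for CDH1. The part of these marker differences in the mitochondrial values was not tested.

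Several mitochondrial genes share bases or end inside a codon. The sequences below show where reads cannot be given to a single gene and how MT-CO3, MT-ND4 and MT-ND5 end. All come from the hg38 mitochondrial chromosome (16569 bases), are written 5′ to 3′ on the strand of the gene, and lie in exons. MT-ATP8 and MT-ATP6 share 46 bases (22.2% of MT-ATP8 and 6.75% of MT-ATP6) at chrM:8527-8572, plus strand, in which the capitals mark the start codon of MT-ATP6 and the stop codon of MT-ATP8.
MT-ATP8 and MT-ATP6: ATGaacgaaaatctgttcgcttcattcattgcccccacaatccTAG
MT-ND4L and MT-ND4 share 7 bases, shown in capitals within chrM:10750-10776, plus strand.
MT-ND4L and MT-ND4: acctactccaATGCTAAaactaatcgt
Of the 13 mRNA genes, 6 end inside their stop codon, 5 of them on 1 base and MT-ND1 on 2, and the poly(A) tail is known to supply the missing bases. The other 7 hold a whole stop codon. The last 30 bases of MT-CO3 (chrM:9961-9990), MT-ND4 (chrM:12108-12137) and MT-ND5 (chrM:14119-14148), all on the plus strand, have the stop codon, or the part of it that the gene holds, in capitals.
MT-CO3: tgtatgtctccatctattgatgagggtctT
MT-ND4: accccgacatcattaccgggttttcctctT
MT-ND5: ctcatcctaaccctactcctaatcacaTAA
The mRNAs with and without a whole stop codon overlapped in their differences between myr-AKT1 and vector cells. In HCC827 cells, the log2 fold changes of the 6 without one ran from -2.08 (MT-CO3) to 0.92 (MT-ND4), and those of the 7 with one ran from -1.56 (MT-ND6) to 1.48 (MT-ND5).

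The 37 genes held 2.36% of all reads in A549-vector and 1.92% in A549-myr-AKT1, and 1.60% in HCC827-vector and 1.24% in HCC827-myr-AKT1. The share was therefore lower in the myr-AKT1 library of both lines, with a log2 ratio of -0.30 (95% counting interval -0.31 to -0.30) in A549 and -0.36 (-0.37 to -0.36) in HCC827. Since RNA came from bulk cells, fewer cells of a kind, fewer mitochondria and less RNA in each cannot be told apart. The value is a share of all reads, so more nuclear RNA cannot be told apart from these either.

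The RNA classes went in different directions. The 13 mRNAs together held 2.25% of the reads in A549-vector, 1.77% in A549-myr-AKT1, 1.51% in HCC827-vector and 0.935% in HCC827-myr-AKT1. Their summed normalized count was lower with myr-AKT1 by a log2 fold change of -0.37 (-0.37 to -0.36) in A549 and -0.77 (-0.78 to -0.76) in HCC827. The rRNAs held 0.111% of the reads in A549-vector, 0.141% in A549-myr-AKT1, 0.0916% in HCC827-vector and 0.305% in HCC827-myr-AKT1. Their sum was higher with myr-AKT1 by a log2 fold change of 0.32 (0.30 to 0.34) in A549 and 1.66 (1.63 to 1.68) in HCC827. For every 100 reads of the mRNAs there were 4.92 reads of the rRNAs in A549-vector, 7.92 in A549-myr-AKT1, 6.08 in HCC827-vector and 32.6 in HCC827-myr-AKT1. This ratio lies within a library and needs no scaling between libraries. The 22 tRNAs together took 274 to 557 reads, or 0.00112% to 0.00168% of a library, and their sum was lower with myr-AKT1 in A549, at a log2 fold change of -0.52 (-0.72 to -0.31), and higher in HCC827, at 0.51 (0.27 to 0.75).

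**Figure D1:**
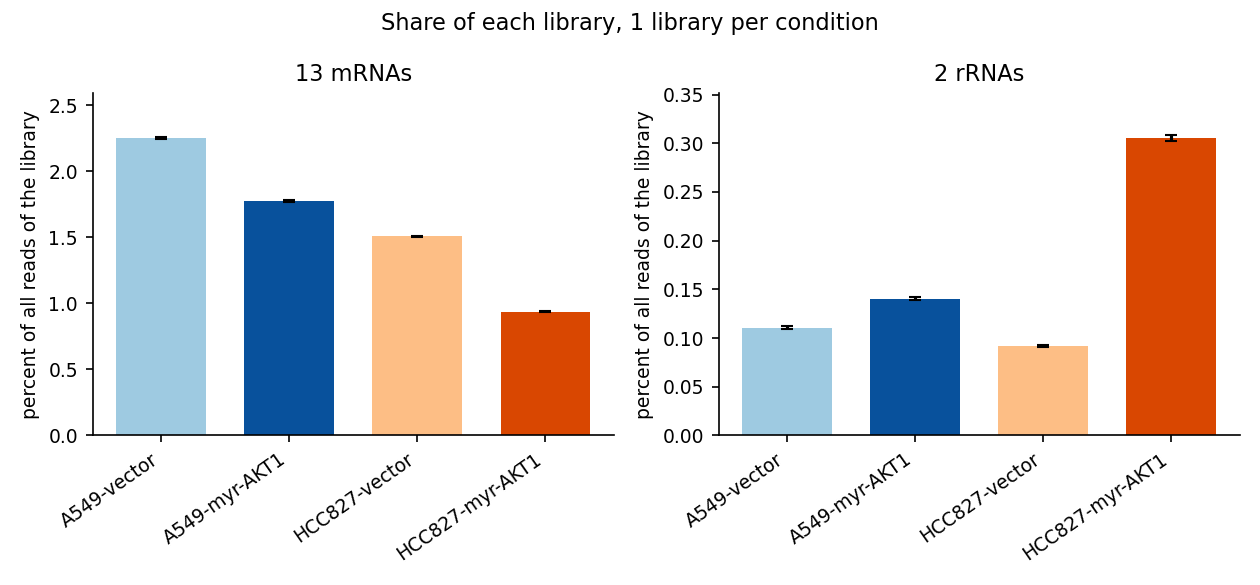
Percent of all reads of a library that came from the 13 mitochondrial mRNAs (left) and the 2 rRNAs (right), each axis starting at 0, with 1 bar per library and 95% Clopper-Pearson intervals for counting error. The mRNA bar is lower in the myr-AKT1 library of each line (1.77% against 2.25% and 0.935% against 1.51%), and the rRNA bar is higher, at 0.305% in HCC827-myr-AKT1.

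Both rRNAs were higher with myr-AKT1 in both lines. MT-RNR1, the rRNA of the small subunit of the mitochondrial ribosome (chrM:648-1601), had 4694 normalized counts in A549-vector, 6307 in A549-myr-AKT1, 3779 in HCC827-vector and 10041 in HCC827-myr-AKT1. The log2 fold change was 0.43 (0.37 to 0.48) in A549 and 1.41 (1.36 to 1.46) in HCC827. MT-RNR2, the rRNA of the large subunit (chrM:1671-3229), had 27727 normalized counts in A549-vector, 34236 in A549-myr-AKT1, 16112 in HCC827-vector and 52675 in HCC827-myr-AKT1. This was a log2 fold change of 0.30 (0.28 to 0.33) in A549 and 1.71 (1.68 to 1.73) in HCC827, a 3.27-fold higher value in the latter. By reads, MT-RNR2 moved from place 113 among all genes of HCC827-vector to place 15 in HCC827-myr-AKT1. The level of MT-RNR2 per length was 2.61 to 3.61 times that of MT-RNR1 in the 4 libraries, lowest in HCC827-vector and highest in A549-vector.

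Nuclear RNAs that carry no poly(A) tail give a value beside the rRNAs. Of 18 such RNAs listed, 17 were matched and 9 passed the filter in each line, which asks for a pair mean of 10 normalized counts or more. Their median log2 fold change was 0.27 in A549 cells (6 higher, 3 lower) and 0.07 in HCC827 cells (5 higher, 4 lower). In HCC827, 2 of the 9 were above 1, against 14.1% of all genes tested, and 2 were below -1, against 12.5%. In A549, 0 were above 1, against 15.1%, and 0 below -1, against 9.87%. Summed, the 17 matched RNAs held 0.648% of the reads in A549-vector, 0.929% in A549-myr-AKT1, 0.599% in HCC827-vector and 0.844% in HCC827-myr-AKT1. This sum weights each RNA by its reads, unlike the median. RN7SL1, the RNA of the signal recognition particle, had 0.50 and 0.42, the spliceosomal RNU4-1 had 0.40 and 1.05, RNU4-2 had 0.61 and 1.18, and SCARNA10 had 0.27 and 0.07, in A549 and HCC827 respectively. Of 20 nuclear rRNA genes listed 3 were matched, with at most 14 reads in any library. Whether these values and the rRNA values share a source in the preparation of the libraries was not tested.

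The complex IV mRNAs were the most abundant and were lower with myr-AKT1 in both lines. MT-CO1, the catalytic subunit, had 309164 normalized counts in A549-vector, 274484 in A549-myr-AKT1, 152369 in HCC827-vector and 97311 in HCC827-myr-AKT1. The log2 fold change was -0.17 (-0.18 to -0.16) in A549 and -0.65 (-0.66 to -0.63) in HCC827. It held the first place among all genes by reads in A549-vector, the 4th in A549-myr-AKT1 and HCC827-vector, and the 8th in HCC827-myr-AKT1.

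MT-CO2, the subunit that takes electrons from cytochrome c, had 90874 normalized counts in A549-vector, 63904 in A549-myr-AKT1, 55941 in HCC827-vector and 24870 in HCC827-myr-AKT1. The log2 fold change was -0.51 (-0.52 to -0.49) and -1.17 (-1.19 to -1.15). MT-CO3, a further core subunit (chrM:9207-9990), had 206203 normalized counts in A549-vector, 131401 in A549-myr-AKT1, 83736 in HCC827-vector and 19845 in HCC827-myr-AKT1. Its log2 fold change was -0.65 (-0.66 to -0.64) in A549 and -2.08 (-2.10 to -2.05) in HCC827, the lowest of the 13 mRNAs in that line and a 4.22-fold lower value. The order of the 3 mRNAs by size of the difference, MT-CO1 then MT-CO2 then MT-CO3, was shared by both lines.

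The complex I mRNAs did not move together, and their summed log2 fold change was -0.37 (-0.39 to -0.35) in A549 and 0.81 (0.79 to 0.84) in HCC827. All 7 were lower in A549-myr-AKT1 cells by more than counting error, whereas in HCC827-myr-AKT1 cells 4 were higher, 2 were lower and MT-ND1 had an interval that includes 0. MT-ND1 and MT-ND2 are the first mRNA genes after the rRNAs, and both encode membrane subunits. MT-ND1 had 5788 normalized counts in A549-vector, 3103 in A549-myr-AKT1, 2773 in HCC827-vector and 2720 in HCC827-myr-AKT1. Its log2 fold change was -0.90 (-0.96 to -0.83) in A549, the lowest of the mRNAs in that line, and -0.03 (-0.11 to 0.05) in HCC827, where scaling to total reads (0.05) and size factors over all 4 libraries (0.02) turned the sign. MT-ND2 had 4164 normalized counts in A549-vector, 2269 in A549-myr-AKT1, 2914 in HCC827-vector and 3095 in HCC827-myr-AKT1. The log2 fold change was -0.88 (-0.95 to -0.80) in A549 and 0.09 (0.01 to 0.16) in HCC827.

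MT-ND4L, MT-ND4 and MT-ND5 follow each other on the plus strand, with MT-ND4L and MT-ND4 on the overlapping frames shown above. MT-ND5, a proton-pumping membrane subunit (chrM:12337-14148), had 6448 normalized counts in A549-vector, 5585 in A549-myr-AKT1, 5348 in HCC827-vector and 14869 in HCC827-myr-AKT1. The log2 fold change was -0.21 (-0.26 to -0.15) in A549 and 1.48 (1.43 to 1.52) in HCC827, the highest of the mRNAs and a 2.78-fold higher value. MT-ND4, another proton-pumping subunit (chrM:10760-12137), had 13686 normalized counts in A549-vector, 12120 in A549-myr-AKT1, 9642 in HCC827-vector and 18301 in HCC827-myr-AKT1. Its log2 fold change was -0.18 (-0.21 to -0.14) in A549 and 0.92 (0.89 to 0.96) in HCC827. MT-ND4L, a small membrane subunit, had 1225 normalized counts in A549-vector, 1098 in A549-myr-AKT1, 570 in HCC827-vector and 1202 in HCC827-myr-AKT1, and its log2 fold change was -0.16 (-0.28 to -0.04) in A549 and 1.08 (0.94 to 1.22) in HCC827. In each of these 3 genes the HCC827-myr-AKT1 library was above the HCC827-vector library.

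MT-ND3, a small membrane subunit, had 3502 normalized counts in A549-vector, 2891 in A549-myr-AKT1, 1877 in HCC827-vector and 1088 in HCC827-myr-AKT1. This was a log2 fold change of -0.28 (-0.35 to -0.20) in A549 and -0.79 (-0.90 to -0.67) in HCC827. MT-ND6 (chrM:14149-14673) is the only mRNA gene on the minus strand, next to MT-ND5 on the other. It had 1131 normalized counts in A549-vector, 710 in A549-myr-AKT1, 429 in HCC827-vector and 146 in HCC827-myr-AKT1. The log2 fold change was -0.67 (-0.81 to -0.53) in A549 and -1.56 (-1.86 to -1.26) in HCC827, from 116 reads in HCC827-myr-AKT1. MT-ND5 and MT-ND6 thus had differences of opposite direction in HCC827, and MT-ND5 exceeded MT-ND6 per length 3.61 times in HCC827-vector and 29.5 times in HCC827-myr-AKT1, against 1.65 and 2.28 times in A549-vector and A549-myr-AKT1. Whether reads were counted by strand is not given in the sources used here, so reads of a gene and of RNA from the opposite strand cannot be told apart.

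The mRNAs of complexes III and V had negative log2 fold changes in both lines. MT-CYB, cytochrome b of complex III, had 8608 normalized counts in A549-vector, 7391 in A549-myr-AKT1, 5751 in HCC827-vector and 4310 in HCC827-myr-AKT1, at a log2 fold change of -0.22 (-0.27 to -0.17) and -0.42 (-0.48 to -0.36). MT-ATP6, the membrane subunit of ATP synthase through which protons pass, had 7888 normalized counts in A549-vector, 6286 in A549-myr-AKT1, 5540 in HCC827-vector and 4139 in HCC827-myr-AKT1. These gave a log2 fold change of -0.33 (-0.38 to -0.28) and -0.42 (-0.48 to -0.36). MT-ATP8, its short neighbor, had 590 normalized counts in A549-vector, 518 in A549-myr-AKT1, 277 in HCC827-vector and 239 in HCC827-myr-AKT1. The log2 fold change of MT-ATP8 was -0.19 (-0.36 to -0.02) in A549 and -0.21 (-0.47 to 0.05) in HCC827, where the interval includes 0. The counting intervals of MT-ATP6 and MT-ATP8, whose frames overlap on the same RNA, overlapped in both lines.

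**Figure D2:**
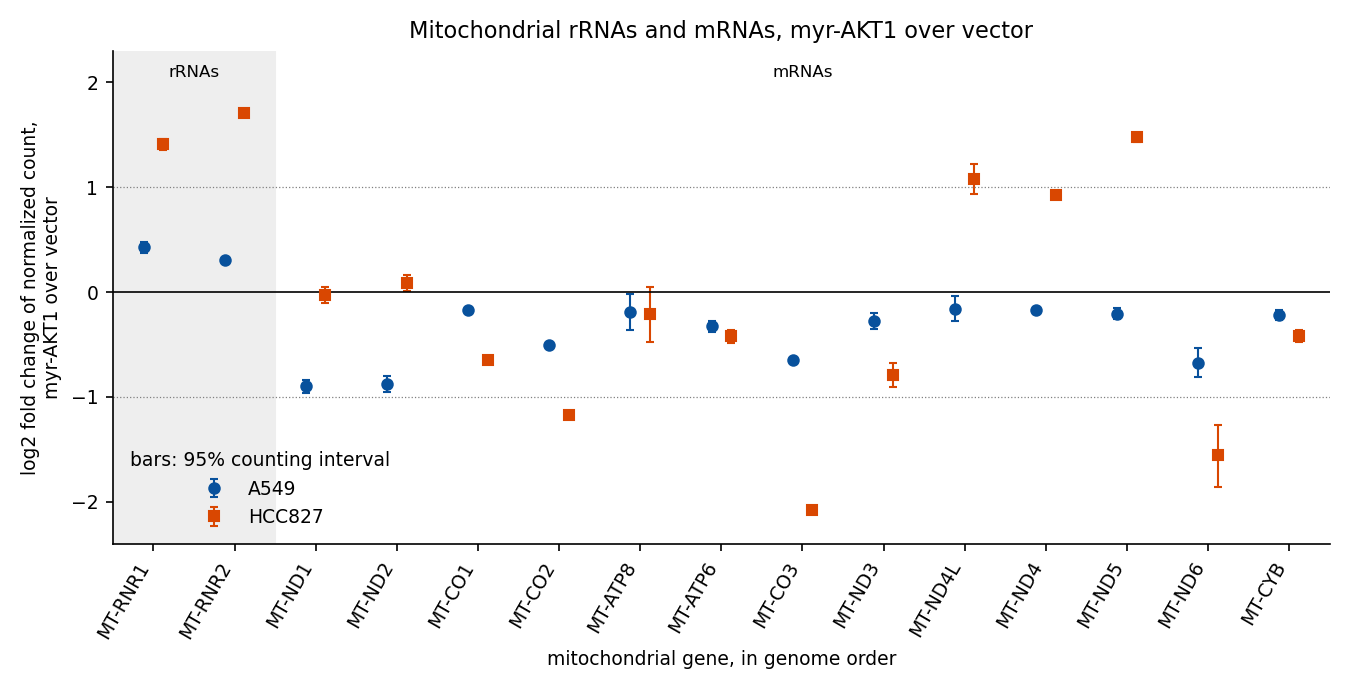
Log2 fold change of the normalized count (myr-AKT1 over vector) for the 2 rRNAs and 13 mRNAs in genome order, circles for A549 and squares for HCC827, with 95% counting intervals and dotted lines at 1 and -1. All 13 mRNAs lie below 0 in A549, and in HCC827 they span -2.08 (MT-CO3) to 1.48 (MT-ND5), while both rRNAs lie above 0 in both lines.

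In A549 cells, then, the 13 mRNAs were all lower, with a median of -0.28 on the log2 scale and a range of -0.90 to -0.16. In HCC827 cells, 9 were lower and 4 higher, with a median of -0.42, and the range was -2.08 to 1.48. The median over all genes that passed the filter was -0.03 in A549 (18750 genes, 5th to 95th percentile -1.52 to 2.18) and -0.04 in HCC827 (17358 genes, -1.63 to 1.93). Across the 13 mRNAs, the values of one line against the other had Pearson's r = 0.40 and Spearman's rho = 0.39, given as a description because the points share libraries. MT-ND2, MT-ND4L, MT-ND4 and MT-ND5 had opposite signs in the lines, with counting intervals that exclude 0 in both. The signs were opposite under the other scalings too, but the interval of MT-ND2 in HCC827 included 0 with TMM factors (-0.01 to 0.14), as did that of MT-ND4L in A549 with size factors over all 4 libraries (-0.18 to 0.06). Those size factors brought the smaller A549 values nearer to 0 by over 1.5 times, to -0.07 for MT-CO1 and MT-ND4, -0.06 for MT-ND4L, -0.09 for MT-ATP8, -0.11 for MT-ND5, -0.12 for MT-CYB and -0.17 for MT-ND3, and moved MT-ND2 in HCC827 to 0.14. Total reads moved MT-ND2 in HCC827 to 0.17 and MT-ATP8 to -0.13.

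The make-up of the mitochondrial mRNA reads needs no scaling between libraries. MT-CO1, MT-CO2 and MT-CO3 together made up 92.0% of these reads in A549-vector, 91.8% in A549-myr-AKT1 and 89.3% in HCC827-vector, but 73.9% in HCC827-myr-AKT1. The share of MT-CO3 was 31.3% in A549-vector, 25.7% in A549-myr-AKT1, 25.6% in HCC827-vector and 10.3% in HCC827-myr-AKT1. MT-ND4 held 2.08%, 2.37%, 2.95% and 9.52% in the same order, and MT-ND5 held 0.978%, 1.09%, 1.63% and 7.74%. MT-CO1 was at 46.9% and 46.6% in the vector libraries of A549 and HCC827 and at 53.6% and 50.6% in their myr-AKT1 libraries. HCC827-myr-AKT1 thus stood apart from the other 3 libraries in MT-CO3, MT-ND4 and MT-ND5. Without the 3 CO genes, the other 10 mRNAs summed to a log2 fold change of -0.34 (-0.36 to -0.32) in A549 and 0.51 (0.49 to 0.53) in HCC827, so the negative mRNA sum in HCC827 rests on the CO genes. Of these 10 in HCC827, 6 were lower and 4 higher, with a median of -0.12, and the positive sum rests on MT-ND4 and MT-ND5, which had the most reads of the 10 in HCC827-myr-AKT1. HCC827-myr-AKT1 is also the library with the fewest reads, 16322183, and the part of depth in these differences was not tested.

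**Figure D3:**
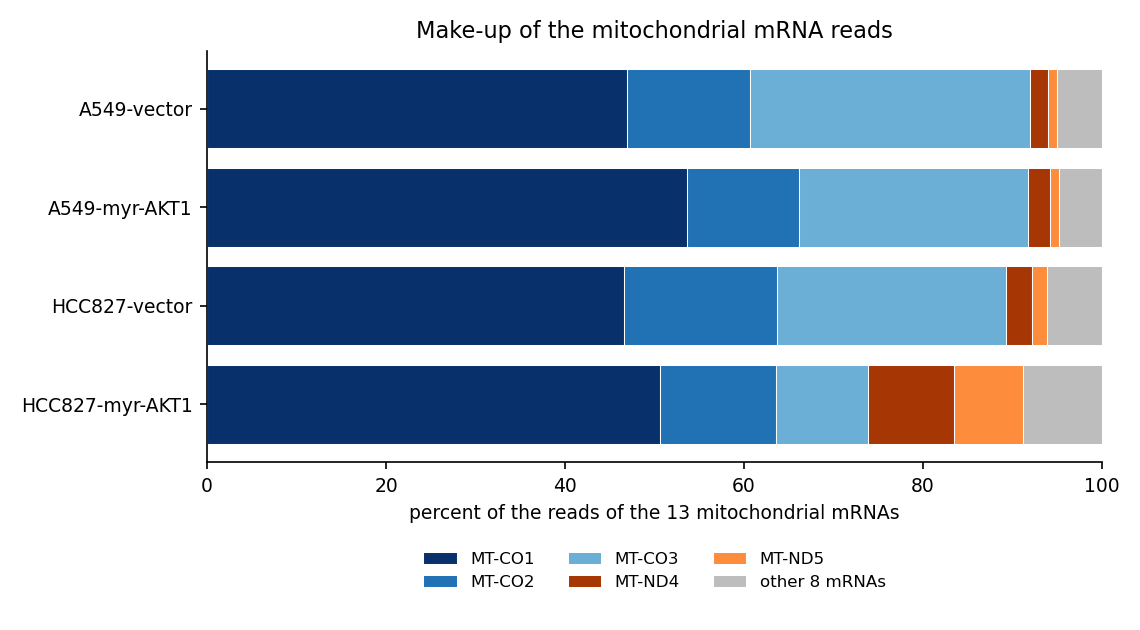
Percent of the reads of the 13 mitochondrial mRNAs held by MT-CO1, MT-CO2, MT-CO3, MT-ND4, MT-ND5 and the other 8 mRNAs, with 1 bar per library. In HCC827-myr-AKT1 the MT-CO3 segment is narrower (10.3%) and the MT-ND4 and MT-ND5 segments are wider (9.52% and 7.74%) than in the other 3 libraries.

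Levels of different genes were compared per length, as RPKM computed here from the recovered reads, the gene's length and the library's total reads. MT-CO1, MT-CO2 and MT-CO3 held the 3 highest levels of the mRNAs in all 4 libraries, and MT-ATP8 or MT-ND2 and then MT-ND6 the lowest. MT-CO3 was first in both vector libraries, with an RPKM of 8982 in A549 and 4921 in HCC827, and MT-CO1 was first in both myr-AKT1 libraries, with 6171 and 3073. The level of MT-CO3 was 73.9 times that of MT-ND5 in A549-vector, 54.4 times in A549-myr-AKT1, 36.2 times in HCC827-vector and 3.08 times in HCC827-myr-AKT1. The level of MT-RNR2 was below that of MT-CO3 in 3 libraries, at 0.0676 of it in A549-vector, 0.131 in A549-myr-AKT1 and 0.0968 in HCC827-vector, and above it, at 1.33 times, in HCC827-myr-AKT1. Between libraries, the log2 levels of the 13 mRNAs had r = 0.99 for the A549 pair, 0.99 for the 2 vector libraries and 0.90 for the HCC827 pair. For MT-ND4L, MT-ND4 and MT-ND5 the RPKM of HCC827-myr-AKT1 was the highest of the 4 libraries, at 197, 647 and 399.5. With 1 library per condition, no spread is at hand to say which neighbors in this order differ.

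**Figure D4:**
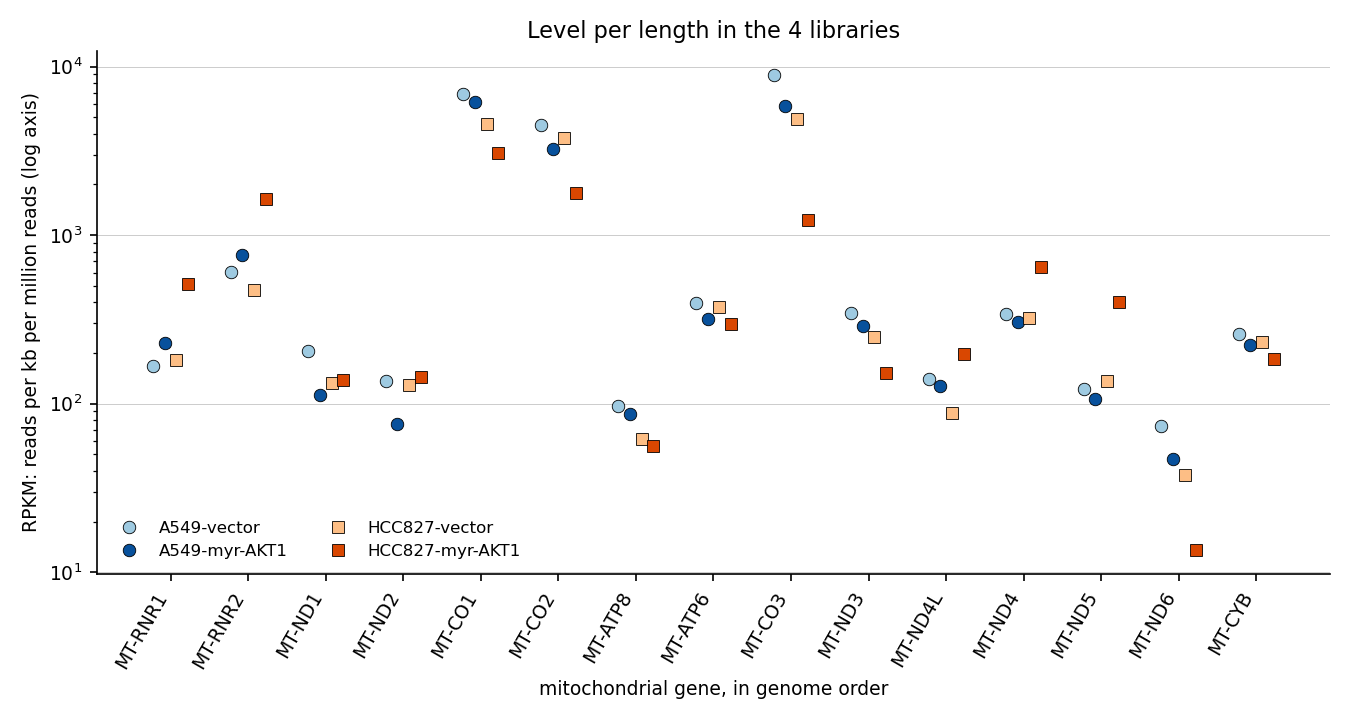
Level of each rRNA and mRNA, in genome order, as RPKM computed from the recovered reads on a log axis, with 1 point per library (circles for A549, squares for HCC827, darker for myr-AKT1). The CO genes lie highest, MT-ND6 lies lowest (an RPKM of 13.5 in HCC827-myr-AKT1), and the HCC827-myr-AKT1 square is the lowest of the 4 points at MT-CO3 and MT-ND6 and the highest at both rRNAs, MT-ND4 and MT-ND5.

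Of the 22 tRNA genes, 10 had at least 1 read in any library and 12 had 0 in all 4, which allows up to 3 reads in a library. MT-TP, MT-TI and MT-TT had the most reads, and their sequences as transcribed are shown with the anticodon in capitals. MT-TP, the tRNA for proline, lies on the minus strand (chrM:15956-16023), and MT-TI for isoleucine (chrM:4263-4331) and MT-TT for threonine (chrM:15888-15953) lie on the plus strand.
MT-TP: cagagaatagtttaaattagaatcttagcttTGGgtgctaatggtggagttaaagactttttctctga
MT-TI: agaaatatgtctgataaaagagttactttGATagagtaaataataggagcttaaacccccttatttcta
MT-TT: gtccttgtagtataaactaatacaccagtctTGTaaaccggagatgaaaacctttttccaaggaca
MT-TP had 426 reads in A549-vector, 186 in A549-myr-AKT1, 215 in HCC827-vector and 117 in HCC827-myr-AKT1, and made up 42.7% to 76.5% of the tRNA reads. For MT-TP the log2 fold change was -0.80 (-1.06 to -0.55) in A549 and -0.21 (-0.55 to 0.12) in HCC827. MT-TI had 42 reads in A549-vector, 38 in A549-myr-AKT1, 26 in HCC827-vector and 66 in HCC827-myr-AKT1, a log2 fold change of 0.25 (-0.43 to 0.92) in A549 and 2.01 (1.33 to 2.72) in HCC827. MT-TT had 27 reads in A549-vector, 39 in A549-myr-AKT1, 31 in HCC827-vector and 61 in HCC827-myr-AKT1, a log2 fold change of 0.92 (0.18 to 1.69) and 1.64 (0.99 to 2.31). In HCC827 the pair on the plus strand was thus higher by more than counting error, which MT-TP was not.

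Of the next tRNAs by reads, MT-TY (tyrosine) had 7 to 16 reads per library, MT-TS1 (serine) 6 to 15 and MT-TQ (glutamine) 5 to 16, and all of their intervals include 0. MT-TW (tryptophan) had 17 reads in A549-vector and 6 in A549-myr-AKT1, and 0 and 2 in HCC827-vector and HCC827-myr-AKT1. MT-TE had at most 3 reads in a library, and MT-TF and MT-TA had 1 read in all. By position, the 10 tRNAs with less than 50 bases to the next gene of their strand on both sides had 0 reads in all. The other 12, of which 10 had reads, held 1433. The limit of 50 bases was chosen after the values were seen. These gaps leave out genes of the opposite strand, and whether reads were counted by strand is not given in the sources used here. Short reads that touch 2 genes can be left uncounted, and the counting mode is not given in the sources used here, so these numbers are reads given to the tRNA genes and not levels of mature tRNA.

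Read against all genes, the members' differences were mostly small in A549 and wider in HCC827, and nothing is concluded from the counts because the contrast was known when the members were picked. Of the 20 members that passed the filter in A549, 0 had a log2 fold change above 1, against 15.1% of all genes tested, and 1 (MT-TW, at -1.11 with an interval of -2.74 to 0.30) was below -1, against 9.87%. None was past 2 in either direction, against 5.79% higher and 2.81% lower of all genes. Of the 19 that passed in HCC827, 6 were above 1 (MT-ND5, MT-RNR2, MT-TI, MT-TT, MT-RNR1 and MT-ND4L), against 14.1%, and 3 were below -1 (MT-ND6, MT-CO2 and MT-CO3), against 12.5%. Past 2, there was 1 higher (MT-TI), against 4.63%, and 1 lower (MT-CO3), against 3.09%. A limma fit was made over all 4 libraries with cell line as a block, which has 1 residual degree of freedom. It called 3.03% of 19314 genes at an adjusted p under 0.05 and 0 of 21 members. edgeR on the recovered reads called 2.2% of these genes and also 0 of 21 members.

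Parts of the mitochondrial genome have copies in nuclear chromosomes, where a read from either place can be given to the other. Of all 50-base windows of a gene, the share with an exact copy elsewhere in hg38 was 50.6% for MT-CO1, 46.7% for MT-ATP6, 43.6% for MT-ND2 and MT-RNR1, 30.9% for MT-CO3, 29% for MT-CO2, 25.6% for MT-ND1, 20% for MT-ND6 and 15.7% for MT-RNR2. It was 8.23% for MT-ATP8, 4.77% for MT-ND5, 3.54% for MT-ND4, 1.65% for MT-CYB and 0 for MT-ND3 and MT-ND4L. Across the 13 mRNAs, this share and the log2 fold change had r = -0.46 and rho = -0.39 in A549. In HCC827 they had r = -0.41 and rho = -0.36, both given as a description. Among the mRNAs with a share of 4.77% or less, MT-ND5, MT-ND4 and MT-ND4L were higher and MT-ND3 and MT-CYB lower in HCC827. Among the tRNAs the share was 0 for MT-TP, MT-TI and MT-TT and 100% for MT-TQ, MT-TS1 and MT-TW. At 100 bases the shares of MT-RNR2, MT-ND4, MT-ND5 and MT-ND6 were 0 and that of MT-CO3 was 4.67%. Of 23 nuclear copies listed by name 10 were matched, and they held 626 to 1542 reads per library, with MTATP6P1 (316 to 908 reads), MTCO1P12 (88 to 336) and MTND2P28 (126 to 281) in the lead. The log2 fold changes of MTND2P28 were -0.77 in A549 and 0.31 in HCC827, against -0.88 and 0.09 for MT-ND2. Those of MTATP6P1 were 0.40 and -0.54, against -0.33 and -0.42 for MT-ATP6. Those of MTCO1P12 were -0.08 and -0.02, against -0.17 and -0.65 for MT-CO1. Of the 4 copies that passed the filter in A549, 3 were lower and 1 higher (median -0.30), and of the 3 in HCC827, 2 were lower and 1 higher (median -0.02). How many reads were given to the wrong place was not tested.

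The nuclear genes that copy and maintain mitochondrial DNA or make, process and protect its RNA were mostly lower with myr-AKT1 in both lines. Of 35 listed, 34 were matched and passed the filter, and their median log2 fold change was -0.51 in A549 (29 lower, 5 higher) and -0.54 in HCC827 (32 lower, 2 higher), against medians of -0.03 and -0.04 over all genes tested. TFAM, which packs mitochondrial DNA and starts its transcription, had 3798 normalized counts in A549-vector, 1502 in A549-myr-AKT1, 2394 in HCC827-vector and 966 in HCC827-myr-AKT1, at a log2 fold change of -1.34 (-1.43 to -1.25) and -1.31 (-1.42 to -1.19). POLRMT, the mitochondrial RNA polymerase, had 2426 normalized counts in A549-vector, 1192 in A549-myr-AKT1, 977 in HCC827-vector and 679 in HCC827-myr-AKT1, and a log2 fold change of -1.03 (-1.13 to -0.92) and -0.52 (-0.67 to -0.38). LRPPRC, which keeps mitochondrial mRNAs stable, had -0.64 (-0.68 to -0.61) and -0.86 (-0.91 to -0.81). These 3 were lower in both lines, as was the sum of the mitochondrial mRNAs (-0.37 in A549 and -0.77 in HCC827). The sum of the mitochondrial rRNAs was higher (0.32 and 1.66). A link between these values was not tested.

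Of the same list, TRMT10C, a subunit of the enzyme that cuts the 5′ ends of tRNAs, had log2 fold changes of -0.92 in A549 and -1.11 in HCC827, and PRIMPOL, a primase, had -0.75 and -1.29. The highest were PRORP, the catalytic subunit of that enzyme (0.03 and 0.01), FASTK (0.24 and -0.02) and POLG, the polymerase that copies mitochondrial DNA (0.09 and 0.72). In each line 3 of the 34 were below -1, which included MGME1 (-1.09) in A549, a nuclease of mitochondrial DNA that is named here because it was past this value, and 0 were above 1. Over all genes tested, 9.87% were below -1 in A549 and 12.5% in HCC827, so 3 of 34 is no more than the background. Above 1 were 15.1% of all genes tested in A549 and 14.1% in HCC827, against 0 of the 34.

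Of the enzymes that modify mitochondrial RNA, all 20 passed the filter, and the median log2 fold change was -0.48 in A549 (19 lower, 1 higher) and -0.57 in HCC827 (18 lower, 2 higher). PUS1, which makes pseudouridine, had -1.21 and -1.04, and QTRT1 and QTRT2, which place queuosine in tRNAs, had -0.44 and -1.65 and -0.94 and -0.83. At the other end were TRIT1 (-0.31 and -0.17) and NSUN3 (-0.17 and -0.18), which modify tRNAs, and NSUN4 (-0.05 and 0.06), which methylates MT-RNR1. There was 1 gene below -1 in A549 (PUS1) and 3 in HCC827 (PUS1, QTRT1 and MRM2), against 9.87% and 12.5% of all genes tested. In both lines 0 were above 1, against 15.1% of all genes tested in A549 and 14.1% in HCC827. MRM2, a methyltransferase for MT-RNR2 that is named here for its value, had 34 reads in A549-vector, 19 in A549-myr-AKT1, 43 in HCC827-vector and 2 in HCC827-myr-AKT1, a log2 fold change of -3.76 (-6.85 to -1.82) in HCC827.

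Of 9 regulators of mitochondrial biogenesis, 5 were lower and 4 higher in A549 (median -0.13), and of the 7 that passed in HCC827, 5 were lower and 2 higher (median -0.31). PPARGC1A, a coactivator that drives mitochondrial biogenesis, had 885 reads in A549-vector and 1081 in A549-myr-AKT1, a log2 fold change of 0.68 (0.55 to 0.81), and 0 reads in both HCC827 libraries. NRF1, a transcription factor for nuclear genes of the respiratory chain, had -0.73 (-0.92 to -0.55) in A549 and -0.17 (-0.37 to 0.02) in HCC827. GABPB1 had -0.71 and -0.59, PPRC1 -0.88 and -0.31, GABPA -0.13 and -0.79 and PPARGC1B -0.32 and -0.31, whereas YY1 had 0.06 and 0.12 and ESRRA 0.19 and 0.12.

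The nuclear subunits of the same respiratory complexes had medians a little below those of all genes tested, which were -0.03 in A549 and -0.04 in HCC827. All 74 passed the filter, and the median log2 fold change was -0.15 in A549 (50 lower, 24 higher) and -0.15 in HCC827 (50 lower, 24 higher). Size factors over all 4 libraries moved the A549 split to 40 lower and 34 higher. Total reads moved the HCC827 split to 45 lower and 29 higher, with a median of -0.07. The lowest were ATP5MC1, a subunit of the proton-carrying ring of ATP synthase (-0.86 and -0.56), and the complex I subunits NDUFB6 (-0.68 and -0.62) and NDUFB2 (-0.48 and -0.62). The highest were the complex I subunits NDUFV2 (0.26 and 1.04) and NDUFA1 (0.56 and 0.16) and UQCRC2 of complex III (0.36 and 0.34). NDUFV2 in HCC827 was the only one past 1 in either direction. Of all genes tested, 15.1% were above 1 and 9.87% below -1 in A549, and 14.1% and 12.5% in HCC827. The complex IV and complex I mRNAs of the mitochondrial genome thus spread more widely in HCC827, from -2.08 to 1.48, than the nuclear subunits beside which they act, by value and without a test.

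**Figure D5:**
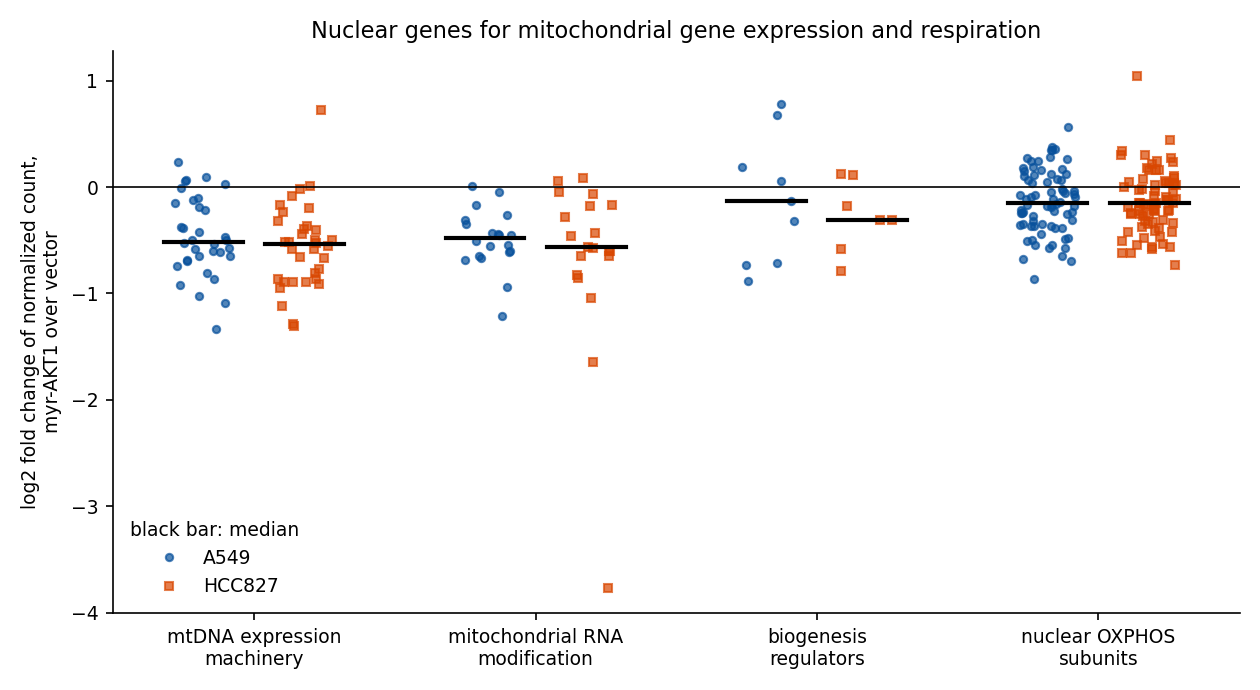
Log2 fold change of the normalized count (myr-AKT1 over vector) for nuclear genes of 4 lists, each point a gene that passed the filter, circles for A549 and squares for HCC827, and black bars for medians. The medians of the expression machinery (-0.51 and -0.54) and of the modification enzymes (-0.48 and -0.57) lie lower than those of the nuclear OXPHOS subunits (-0.15 and -0.15), with OXPHOS standing for oxidative phosphorylation.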

How the data were processed

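Per the Methods, the authors aligned reads to hg38 with Bowtie2 and counted them with HTSeq, and the annotation, strand setting and treatment of reads on several genes are not given in the sources used here. The Methods name RPKM, but the deposited signal holds reads that were divided by a size factor, 1 for each library, estimated within a line. Reads were recovered by dividing by the worth of 1 read, and at a tolerance of 0.001 all genes with reads came out whole in the myr-AKT1 libraries and all but 1 in each vector library (100% rounded). Members and gene lists were chosen with earlier results of these data known. Symbols came from GENCODE release 44.

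Log2 fold changes compare deposited values with no pseudocount added, have 95% Clopper-Pearson intervals, and were counted where the pair's mean was 10 normalized counts or more. The fit across genes used limma 3.58.1 on log2(value + 1) with cell line as a block (R 4.3.3). It called 250 genes higher and 335 lower, and edgeR 4.0.16 on recovered reads called 424 of 19314 genes (2.2%). Both were tested on simulated data whose changed genes had the same change in both lines. Changes that differ between lines were not simulated. Named genes were all mRNAs and rRNAs, the 6 tRNAs with most reads, and of each list the 3 highest and lowest by mean log2 fold change among those with a mean of 50 normalized counts or more in both pairs, plus POLRMT, TFAM, LRPPRC, PPARGC1A and NRF1. Alternatives changed the scaling, filter, threshold, denominator and fit.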

Additional observations from a re-analysis of the deposited data

Results flagged for a closer look

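In 4 cases, complex I mRNAs were lower with myr-AKT1 in A549 and higher in HCC827, with 95% counting intervals that exclude 0 in both lines. The difference of the log2 fold changes (HCC827 minus A549) was 0.96 for MT-ND2, 1.23 for MT-ND4L, 1.10 for MT-ND4 and 1.68 for MT-ND5. There being 1 library per condition, no test was made of this contrast between lines. The signs were opposite under all 4 other scalings as well, but the interval included 0 for MT-ND2 in HCC827 with TMM factors (-0.01 to 0.14) and for MT-ND4L in A549 with size factors over 4 libraries (-0.18 to 0.06). MT-ND4L and MT-ND4 share bases and are not independent.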

How the results depend on the processing

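Scaling moved the class sums without turning any. In A549 the mRNA sum, -0.37 as reported, was -0.34 with total reads, -0.34 with TMM factors and -0.26 with size factors over 4 libraries, and the rRNA sum, 0.32, was 0.34, 0.35 and 0.42. In HCC827 the mRNA sum, -0.77, was -0.69, -0.79 and -0.72, and the rRNA sum, 1.66, was 1.74 with total reads and 1.71 with size factors over 4 libraries. Size factors over 4 libraries moved the median of all genes in A549 from -0.03 to 0.07. Of 120 single mRNA and rRNA values under these scalings and size factors without mitochondrial genes, 118 kept their direction and 2 turned (MT-ND1 in HCC827, -0.03 as reported, was 0.052 with total reads and 0.021 with size factors over 4 libraries). With reads of nuclear protein-coding genes as denominator, the log2 ratio of the mitochondrial share was -0.28 in A549 and -0.35 in HCC827, and without the 10 nuclear genes with the most reads it was -0.27 in A549. Past a log2 fold change of 2 in place of 1 there were 0 members in place of 1 in A549 and 2 in place of 9 in HCC827, and with no filter there were 2 in A549. In the limma fit, no filter on low values called 5 members (MT-RNR1 and MT-RNR2 higher, MT-CO2, MT-CO3 and MT-ND6 lower) of 25 and 1995 genes in place of 585, a pseudocount of 0.1 and a fit without the block called 0 genes, and total reads called 457; the cause was not tested. The block pairs the constructs within a line. Each condition has 1 library, so there are no replicate numbers to pair and no replicate could be left out. The medians of the 4 lists of nuclear mitochondrial genes were below 0 in both lines under every scaling run, closest to 0 at -0.03 for the biogenesis regulators in A549. The tRNA values rest on few reads.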
